A study of Mus musculus with 8 samples.

Results

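Protamines, transition proteins and the linker histones of spermatids are grouped here for the remodelling of chromatin in spermatids. Prm3 carries the protamine name, but its protein is acidic and known from the cytoplasm. The genes described here are 7 in number, Prm1, Prm2, Prm3, Tnp1, Tnp2, Hils1 and H1fnt. They were chosen by gene symbol, and each symbol matched 1 gene model, so the set is 7 of the 56324 gene models in the deposited table. All 7 passed the filter on low values. RNA sequencing compared spermatocytes, the germ cells in meiosis, with spermatids, the haploid cells that follow it. There were 4 libraries of each cell type. Every library is labelled Sam68 -/-, so both groups share this knockout label; Sam68 is an RNA-binding protein that the gene Khdrbs1 encodes. The mice were C57BL/6 males aged 12 weeks, and the cells were enriched by sedimentation at unit gravity. No wild-type library was analysed here, and the values describe libraries with that label only. The labels do not say whether libraries of one cell type are from different animals, and the p-values reflect the spread of the libraries alone, part of which may be technical.

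During spermiogenesis the histones of the spermatid are exchanged first for transition proteins and then for protamines, which are small arginine-rich proteins that pack the DNA of the sperm head. Testis linker histones join this remodelling: HILS1 is a linker-histone-like protein of the spermatid nucleus, and H1FNT, also called H1T2, sits at 1 pole of the round spermatid nucleus and is needed for normal condensation. The mRNAs of Prm1, Prm2, Tnp1 and Tnp2 are made in round spermatids and are known for being stored, with translation delayed until elongation. A level of mRNA in a spermatid library is therefore not a level of protein.

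Total counted reads ran from 49000266 to 78060212 in spermatocyte libraries and from 60673309 to 93975960 in spermatid libraries. A limit of 3 reads corresponded to between 2.418 and 4.504 normalized counts, far below every value of the 7 genes. Khdrbs1 had a mean of 4133 ± 676 normalized counts in the spermatocyte group, against 815 ± 233 in the spermatid group (mean ± SD, n = 4). Single libraries ran from 3421 to 4985 in spermatocytes and from 625 to 1129 in spermatids. Its RNA was thus counted in all 8 libraries labelled as knockout, and the labels do not say which part of the gene is deleted, so this level checks no label. Summed markers of round spermatids ran from 13809 to 19063 normalized counts among spermatocytes and from 215312 to 320523 among spermatids. Of 12 spermatocyte markers, 6 fell in spermatids and 1 rose. All 14 Sertoli cell markers were lower in spermatids, with sums from 37864 to 183088 in spermatocyte libraries and from 3452 to 9416 in spermatid libraries, and none of the 14 was at 0 in either group. All 5 Leydig cell markers were lower in spermatids. Of 7 macrophage and blood cell markers tested, 6 were higher in spermatids, as were 4 of 8 spermatogonial markers and 3 of 5 peritubular and endothelial markers, of which 1 was lower. The part of these other cell types in the results was not tested. Some markers, among them C1qa and Fshr, met the filter on low values only with libraries of the group where they were higher. The marker counts use the calling rule given below, by which 32.5% of all tested models were higher in spermatids and 29.8% lower. The call of Acta2, a peritubular marker counted as higher, was lost with equal total reads as the scaling and with quantile normalization. It was also lost when spermatocyte library 2 or 4, or spermatid library 1 or 3, was left out.

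The coding sequences show what separates the family. They are written 5′ to 3′ from the GENCODE annotation of GRCm38, with arginine codons in capitals, for the most arginine-rich gene, the shorter transition protein and the gene that departs from both. Prm3 is shown over its first 300 bases.

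Prm1: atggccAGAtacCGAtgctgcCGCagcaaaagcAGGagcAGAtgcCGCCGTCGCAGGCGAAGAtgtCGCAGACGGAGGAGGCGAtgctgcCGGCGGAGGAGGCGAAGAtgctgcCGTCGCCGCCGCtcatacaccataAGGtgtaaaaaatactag

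Tnp1: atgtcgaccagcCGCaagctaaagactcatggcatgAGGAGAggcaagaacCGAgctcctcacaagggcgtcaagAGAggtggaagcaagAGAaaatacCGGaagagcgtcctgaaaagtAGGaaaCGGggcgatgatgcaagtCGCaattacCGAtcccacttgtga

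Prm3: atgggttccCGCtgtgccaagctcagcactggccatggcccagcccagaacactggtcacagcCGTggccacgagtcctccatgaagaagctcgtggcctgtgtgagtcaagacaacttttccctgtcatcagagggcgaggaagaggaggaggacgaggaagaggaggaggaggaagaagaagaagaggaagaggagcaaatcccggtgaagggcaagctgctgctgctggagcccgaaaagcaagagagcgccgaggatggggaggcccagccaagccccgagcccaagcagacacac

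Prm1 had arginine in 28 of 51 codons, or 54.9%, mostly in unbroken runs. Prm2 followed with 38 of 107 codons, or 35.5%. Among the others, arginine took 20% of the codons of Tnp1, 16.3% of H1fnt, 13.7% of Tnp2 and 7.1% of Hils1. Prm3 had only 2.0% arginine codons and 29.7% codons for acidic residues, seen in the sequence as a long run of gag and gaa. The mouse Prm3 protein is acidic and is known from the cytoplasm of spermatids.

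All 7 genes rose in spermatids. The fold of mean normalized counts was between 16.2 (Prm2) and 28.1 (Prm3), and the spermatocyte level was 3.56% to 6.18% of the spermatid level. A model was called when its adjusted p in limma was below 0.05 and its log2 fold change was at least 1 in either direction. By this rule 32.5% of 28735 tested models were higher in spermatids and 29.8% were lower. A log2 fold change of at least 4 among the calls is reached by 12.5% of tested models and by all 7 genes. Every spermatid library exceeded every spermatocyte library for each gene, which also held for 34.2% of tested models. The median log2 fold change was 4.28 over the 7 genes and -0.01 over all tested models.

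**Figure D1:**
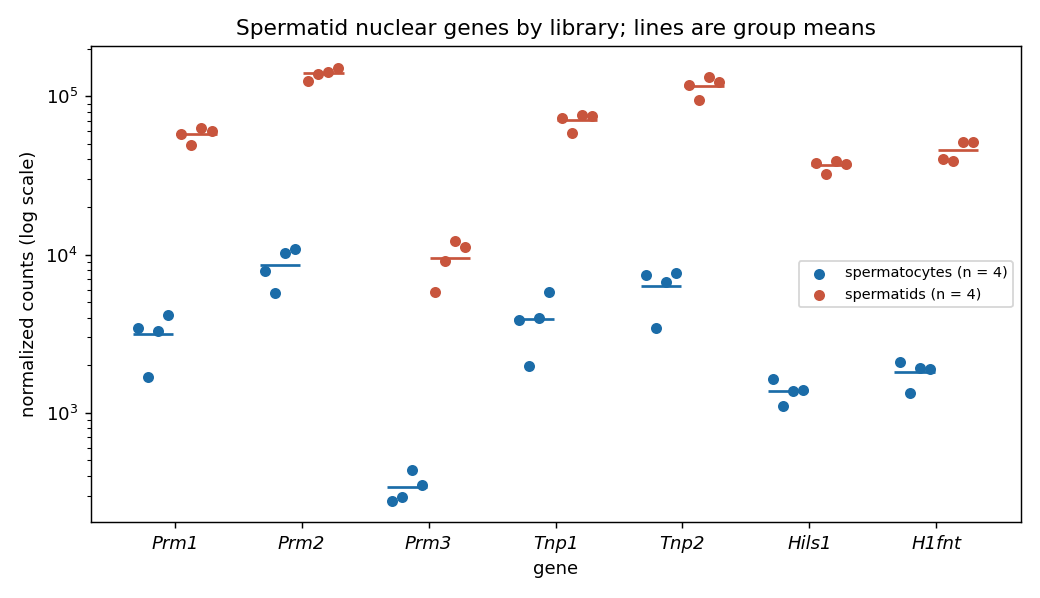
Normalized counts (log axis) of the 7 genes in each library, with 1 point per library and a line at each group mean. In every gene the 4 spermatid points lie above the 4 spermatocyte points.

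The protamines come first. Prm1, which binds DNA directly as a mature protein in mammals, measured 3415, 1683, 3270 and 4177 normalized counts in spermatocyte libraries 1 to 4. In spermatid libraries 1 to 4 it measured 57775, 49254, 63379 and 60315. Library 2 was the lowest in both cell types, and the lowest spermatid value was 11.8 times the highest spermatocyte value. The means were 3136 ± 1047 and 57681 ± 6067 (SD, n = 4 each), with a log2 fold change of 4.27 ± 0.25 (SE, limma adjusted p = 2.4e-08).

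Prm2, made as a precursor that is trimmed after it binds DNA, had the highest count of the set. It measured 7824, 5721, 10225 and 10798 normalized counts in spermatocytes, and 125296, 139276, 142862 and 151858 in spermatids. Its mean of 139823 ± 11036 (SD, n = 4) in spermatids ranked 35 among the 56324 models by count. Its log2 fold change of 4.06 ± 0.21 (SE, limma adjusted p = 7.4e-09) was the smallest of the 7. Prm1, Tnp1 and Tnp2 were close to it, at 4.26 to 4.28, and with GC correction Tnp1 was the lowest, at 4.32.

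Prm3 was the rarest of the 7 and had the largest fold. It measured 279, 295, 438 and 352 normalized counts in spermatocytes, and 5815, 9130, 12116 and 11238 in spermatids. Spermatid library 1 was lower than each of the other 3, and the coefficient of variation in spermatids was 29.3%, against 7.84% to 15.5% for the other 6 genes. The log2 fold change was 4.78 ± 0.25 (SE, limma adjusted p = 7.9e-09).

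The transition proteins, which occupy the DNA between histones and protamines, moved like Prm1. Tnp1 measured 3835, 1978, 3966 and 5819 normalized counts in spermatocytes, and 72695, 58981, 76553 and 75143 in spermatids. Tnp2 measured 7455, 3444, 6735 and 7643 in spermatocytes, and 117019, 94968, 132074 and 122825 in spermatids. Both were lowest in library 2 of each cell type, and neither overlapped between the groups. The log2 fold changes were 4.28 ± 0.28 for Tnp1 and 4.26 ± 0.25 for Tnp2 (SE, limma adjusted p = 5e-08 and 2.2e-08).

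The linker histones rose too, with coefficients of variation in spermatocytes of 15.9% for Hils1 and 18.5% for H1fnt, against 21.1% to 40.2% for the other 5 genes. Hils1 measured 1636, 1101, 1384 and 1389 normalized counts in spermatocytes, and 37992, 32474, 38957 and 37110 in spermatids. H1fnt measured 2107, 1329, 1910 and 1889 in spermatocytes, and 39904, 38807, 51429 and 51711 in spermatids. Both genes were lowest in spermatocyte library 2 and in spermatid library 2. Their lowest spermatid values were 19.8 and 18.4 times their highest spermatocyte values, against 10.1 to 13.3 times for the other 5 genes. The log2 fold changes were 4.74 ± 0.17 for Hils1 and 4.66 ± 0.19 for H1fnt (SE, limma adjusted p = 9.5e-10 and 1.6e-09).

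Across the set, 6 of 7 genes were lowest in spermatocyte library 2, Prm3 being the exception. In spermatids 5 of 7 were lowest in library 2, the exceptions being Prm2 and Prm3, which were lowest in library 1. Together the 7 genes took 0.0422 ± 0.013% of all reads in spermatocyte libraries and 0.579 ± 0.077% in spermatid libraries (SD, n = 4 each). With equal total reads as the scaling, the median of all models moved to -0.47 and 41.7% of all calls were higher in spermatids, against 52.2% with the deposited scaling. The 7 log2 fold changes then ran from 3.62 to 4.34, each still called. Without spermatocyte libraries 3 and 4, which had the highest Sertoli marker sums, they ran from 4.38 to 5.0. Quantile normalization gave 3.59 to 4.31, with the median of all models at -0.36 and 44.5% of calls higher.

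Levels of different genes were compared per kilobase of annotated transcript. In spermatids the order of mean normalized counts per kilobase was Prm2 (225158 ± 17772), Tnp2 (210688 ± 28470), Tnp1 (162113 ± 18460), Prm1 (122986 ± 12936), Hils1 (42399 ± 3326), H1fnt (34757 ± 5403) and Prm3 (23353 ± 6835), each with its SD and n = 4. The spermatocyte means, from 13916 for Prm2 to 832 for Prm3, stood in the same order. Prm2 exceeded Tnp2 in only 2 of 4 spermatid libraries and 3 of 4 spermatocyte libraries. Each other neighbour in the order held its place in 4 of 4 libraries of both types. The ranges of neighbours were separate only between Prm1 and Hils1, in both cell types, and between H1fnt and Prm3, in spermatids. These levels assume the annotated transcript length, and reads shared with overlapping models could shift them.

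**Figure D2:**
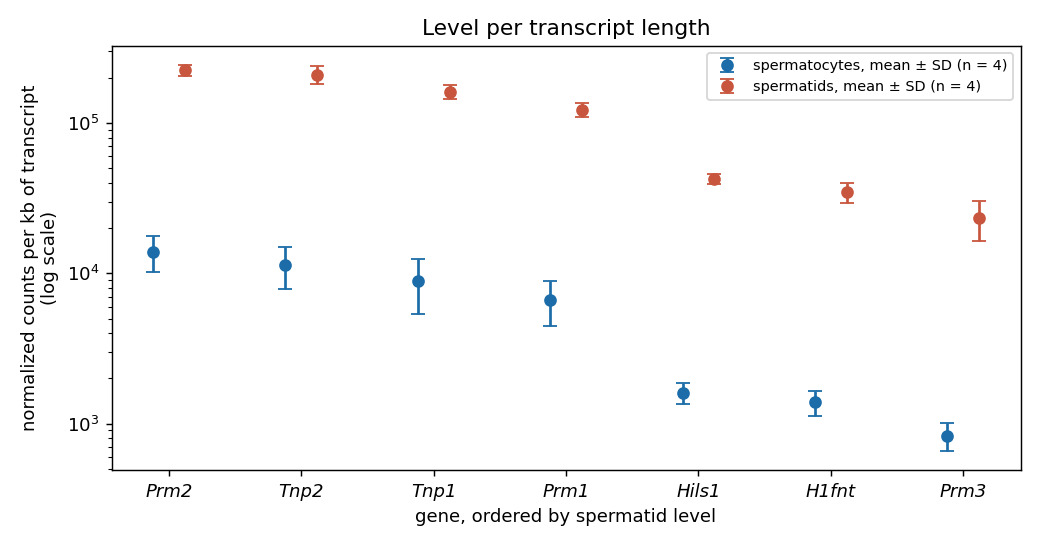
Normalized counts per kilobase of transcript (log axis) for the 7 genes in spermatocytes and spermatids, as group means with SD bars. The order of the means, from Prm2 down to Prm3, is the same in both cell types.

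Ratios between 2 genes within a library do not depend on library scaling, so 6 pairs were set side by side, each with a two-sided exact permutation test and adjustment over the 6. The log2 ratio of Tnp1 to Tnp2 was -0.73 ± 0.24 in the spermatocyte libraries and -0.72 ± 0.05 in the spermatid libraries (SD, n = 4; exact p = 0.971, adjusted p = 0.971). That of Tnp1 to Prm1 was 0.29 ± 0.13 and 0.30 ± 0.03 (exact p = 0.971, adjusted p = 0.971). Both differences of 0.01 became -0.21 after a correction for GC content. Prm1 to Prm2 was -1.49 ± 0.26 and -1.28 ± 0.17 (exact p = 0.2, adjusted p = 0.4), and Hils1 to H1fnt was -0.39 ± 0.09 and -0.30 ± 0.18 (exact p = 0.514, adjusted p = 0.771).

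The ratio of Prm3 to Prm2 was -4.64 ± 0.30 in spermatocytes and -3.92 ± 0.37 in spermatids, a difference of 0.72 with overlapping groups (exact p = 0.0571, adjusted p = 0.171). The largest shift was that of H1fnt against Hist1h1t, the testis-specific linker histone of meiosis and early spermatids. Its log2 ratio was 3.56, 3.11, 2.89 and 3.98 in spermatocytes and 7.08, 6.51, 6.93 and 7.54 in spermatids. The groups did not overlap and the mean shift was 3.63, but with 0.0286 as the smallest p that 4 against 4 libraries allow, the exact p = 0.0286 became 0.171 after adjustment. None of the 6 pairs passed at an adjusted p below 0.05, and 1 of 6 had an unadjusted p under 0.05. Hist1h1t had only 119 to 423 normalized counts. The limit on histone mRNAs without a poly(A) tail, given below, may apply to its ratio.

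**Figure D3:**
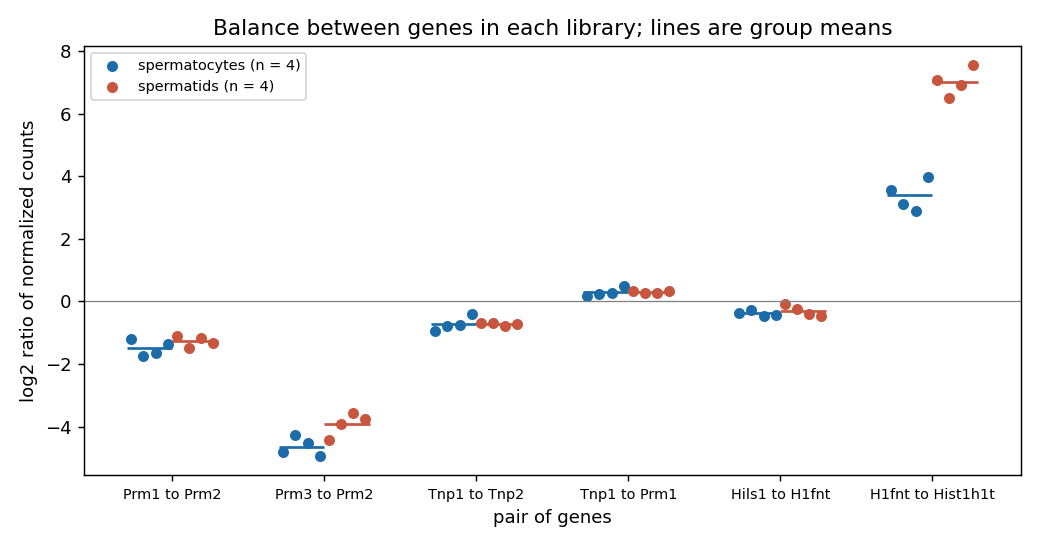
Log2 ratio of normalized counts for 6 gene pairs in each library of spermatocytes and spermatids. Only the pair of H1fnt and Hist1h1t has groups that do not overlap, from 3.39 ± 0.48 to 7.01 ± 0.42 (SD, n = 4 each).

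The spermatocyte libraries contained these transcripts at levels well above the floor. Round spermatid markers stood in spermatocytes at a median of 2.38% of their spermatid level, with 11 markers ranging from 2.01% to 48.7%. Elongating spermatid markers stood at a median of 4.99%, with 10 markers ranging from 3.48% to 96.6%. The 7 genes lay at 3.56% to 6.18%. Whether the spermatocyte counts come from spermatids carried along in the fraction or from spermatocytes was not tested, and in bulk samples fewer cells of a type and less RNA per cell cannot be told apart.

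**Figure D4:**
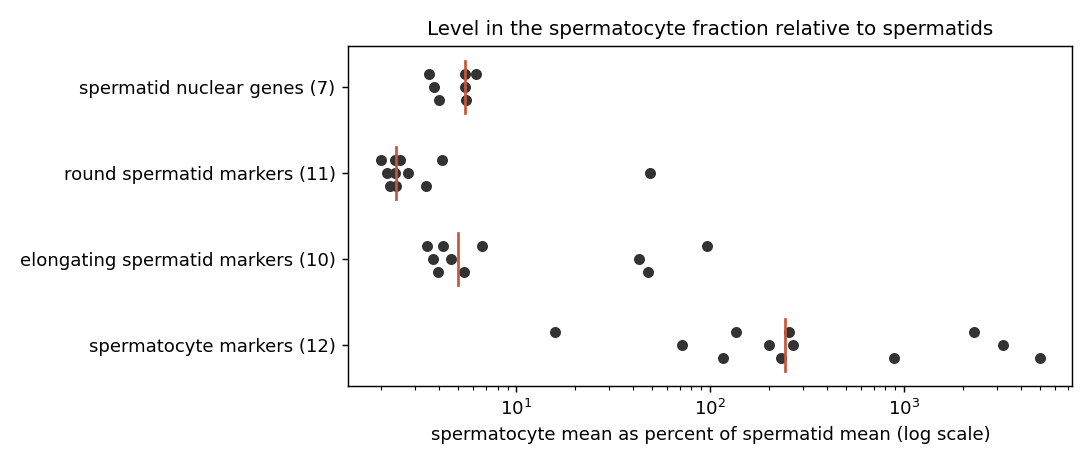
Mean spermatocyte level as a percent of the mean spermatid level (log axis), 1 point per gene, for the 7 genes and for the marker lists of round spermatids, elongating spermatids and spermatocytes, with a red line at each median. The 7 genes lie between 3.56% and 6.18%, beside the elongating spermatid median of 4.99%.

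The genes most like each of the 7 had the smallest root mean square difference of centred log2 values over the 8 libraries. The search ran over 15615 tested models with a symbol, leaving out the 7 themselves and Gm, Rik, AC or AL symbols. Among the 7 themselves, Prm1 and Tnp2 differed by 0.07, Prm1 and Tnp1 by 0.08, and Hils1 and H1fnt by 0.13. Prm3 stood farthest from the rest, at 0.31 to 0.53. Outside the set, Oxct2b, a testis ketone-body enzyme gene, was the nearest to Prm1 at 0.06, to Tnp2 at 0.08 and to Tnp1 at 0.12. Dydc2 was nearest to Prm2 at 0.12. St6galnac2, a sialyltransferase gene, was nearest to Prm3 at 0.10, followed by Smcp, which encodes a sperm mitochondrial protein, at 0.12. Tmem247 was nearest to Hils1 at 0.08 and BC048507 to H1fnt at 0.07. The measure spans both cell types, so it takes in the size of the rise.

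Prm1, Prm2, Prm3 and Tnp2 lie together on the minus strand of chromosome 16, within 8892 bases from 10787936 to 10796827 (mm10). Tnp1 lies on chromosome 1 (73015077 to 73015899, minus strand), Hils1 on chromosome 11 (94967598 to 94968456, plus strand) and H1fnt on chromosome 15 (98255982 to 98257307, minus strand). All 7 genes rose, those of the cluster and those on other chromosomes alike. The 120 bases before the start of the transcript are given for the 4 with the highest levels per kilobase. They come from RefSeq on GRCm38.p6, written 5′ to 3′. Capitals mark 2 motifs: TGANNTCA, which includes the full cAMP response element TGACGTCA, and TATA between 40 and 21 bases before the start.

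Prm2, chr16:10792106-10792225, minus strand: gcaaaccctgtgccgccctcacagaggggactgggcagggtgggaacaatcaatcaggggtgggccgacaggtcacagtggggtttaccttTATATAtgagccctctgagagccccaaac

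Tnp2, chr16:10788656-10788775, minus strand: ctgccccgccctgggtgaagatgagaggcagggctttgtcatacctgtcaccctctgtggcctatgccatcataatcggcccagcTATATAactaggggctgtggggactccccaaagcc

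Tnp1, chr1:73015900-73016019, minus strand: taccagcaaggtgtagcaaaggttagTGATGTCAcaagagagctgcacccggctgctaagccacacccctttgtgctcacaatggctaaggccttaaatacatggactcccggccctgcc

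Prm1, chr16:10796824-10796943, minus strand: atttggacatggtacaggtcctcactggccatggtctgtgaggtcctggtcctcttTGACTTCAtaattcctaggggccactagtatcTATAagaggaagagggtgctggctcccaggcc

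The search covered 250 bases before and 50 after the start, on both strands, in the promoters of all 7 genes, H1fnt being listed there as H1f7. TGANNTCA occurred in 4 of 7, at -64 in Prm1, -60 in Prm3, -94 in Tnp1 and -7 in Hils1, where the match crosses the start. It occurred in 14.1% of 32851 promoters. The full element TGACGTCA occurred in 0 of 7 and in 1.79% of promoters. TATA stood in the narrow window in 3 of 7, namely Prm1, Prm2 and Tnp2, against 5.7% of promoters. Both motif choices were made with these promoters in view, so the counts are descriptions. Prm1 held both motifs.

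Of 15 tested neighbour models within 50 kb, 8 were called higher, 3 lower and 4 neither, that is 53.3% higher and 20% lower, beside 32.5% and 29.8% of all models. The 10 that carry a gene symbol gave 3 higher and 3 lower, with a median log2 fold change of 0.41. All 5 without a symbol were called higher, at 1.38 to 4.98 on the log2 scale. Of these, 2 lie within the span of 1700027A15Rik and 1 overlaps Prm1 and Prm2, so the models are not independent of each other. The 2 in that span, and the model at chr16:10798288-10798316, had under 10 normalized counts in every spermatocyte library. They met the filter on low values only through spermatids, so a call of lower was all but closed to them. The counts of 8 and 5 higher are therefore not read as a result. 1700027A15Rik, on the strand opposite to Tnp1, averaged 388 ± 115 normalized counts in the spermatocyte group and 7322 ± 269 in the spermatid group (mean ± SD, n = 4), a log2 fold change of 4.28 ± 0.22 (SE, limma adjusted p = 7e-09). The counted model of 1700027A15Rik lies 136 bases from that of Tnp1 and shares no bases with it. Only the longer span in GENCODE holds Tnp1. Sgca, the muscle sarcoglycan gene that holds Hils1 on the opposite strand, fell to 412 ± 101 normalized counts in spermatids, where the spermatocyte mean was 1606 ± 292 (mean ± SD, n = 4). Its log2 fold change was -1.97 ± 0.23 (SE, adjusted p = 7e-06 in limma), and none of its exons overlaps the Hils1 model.

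The other called neighbours with a symbol were Rmi2 at -1.94, Ppp1r9b at -1.80, and the 2 models of Col1a1, a collagen gene, at 2.98 and 3.26 on the log2 scale. Col1a1's smaller model had under 10 normalized counts in every spermatocyte library, and its log2 fold change was 1.80 with a pseudocount of 8. This model too met the filter on low values only through spermatids. Next to the cluster, Socs1, an inhibitor of cytokine signalling, had a log2 fold change of -0.56 and Clec16a of 0.63, neither called, as were Zfp641 at 0.63 and Samd14 at 0.19. An unnamed model at chr16:10791059-10798060, picked after its values were seen, overlaps Prm1 and Prm2. Its normalized counts were 2076 ± 809 in spermatocyte libraries and 33821 ± 1992 in spermatid libraries (mean ± SD, n = 4), and its reads may be shared with those genes.

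The lists of related genes moved in mixed directions. Of 19 genes of histone exchange, 5 were called higher and 5 lower, or 26.3% each way, near the 32.5% and 29.8% of all models, with a median log2 fold change of 0.50. Nutm1, which recruits histone acetylation in spermatids, was higher by 5.19 on the log2 scale, and Chd5, a chromatin remodeller of spermatids, by 4.87. Parp1, a DNA-damage polymerase, fell by 2.0 and Mdc1, the damage adaptor that marks the sex chromosomes in meiosis, fell by 1.89. With equal total reads or quantile normalization the number called higher was 3.

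Of 24 genes that act on the transcription, storage or translation of these mRNAs, 8 were called higher and 6 lower, with a median of 0.12. These are 33.3% and 25%, near the 32.5% and 29.8% of all models. Fhl5, the coactivator of CREM, was higher by 5.19 and Taf7l, a testis transcription factor subunit, by 4.19. Piwil1, a piRNA-pathway protein, fell by 5.02 and Tsn, an RNA-binding protein, fell by 1.5. The Y-box proteins, which bind and store protamine mRNA, had log2 fold changes of -0.14 (Ybx1), -0.05 (Ybx2) and -0.12 (Ybx3), and none was called.

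Of 11 protamine-modifying enzymes and chaperones, 2 were higher and 1 lower, with a median of 0.08. These are 18.2% and 9.09%, beside 32.5% and 29.8% of all models. The kinase Camk4 was higher by 4.90, from 97.6 ± 11.4 to 2985 ± 620 normalized counts (SD, n = 4 each), and Srpk2, a kinase for arginine-serine proteins, by 1.37. Srpk2 was not called with equal total reads, quantile normalization or GC correction, where its log2 fold change was 0.93, 0.79 and 0.91. The histone chaperone Nap1l4 fell by 2.05. Hspa2, a chaperone for transition proteins, had a log2 fold change of 0.01.

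Other linker histones gave 3 higher and 1 lower of 6 tested, with a median of 0.65. These are 50% and 16.7%, beside 32.5% and 29.8% of all models. Hist1h1a was higher by 3.65 and Hist1h1d by 3.38 on the log2 scale, with spermatid means of 175 ± 13.8 and 45.2 ± 15.7 normalized counts (SD, n = 4 each). Hist1h1d's value was 2.14 with a pseudocount of 8. Hist1h1d had under 10 normalized counts in every spermatocyte library, and Hist1h1a had 9.67 and 9.81 in spermatocyte libraries 1 and 2. Both met the filter on low values only with spermatid libraries. Their calls, and the count of 3 higher, are not read as a result. Hist1h1t was higher by 1.03, from 176 ± 58.4 to 354 ± 79.1 normalized counts. Hist1h1c was lower by a log2 fold change of -1.41, a call that was lost without spermatocyte library 3 (-1.03), spermatocyte library 4 (-1.30), spermatid library 2 (-0.98), or both spermatocyte libraries (-0.67). Replication-dependent histone mRNAs mostly lack a poly(A) tail, and libraries of polyadenylated RNA count them incompletely.

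Of 17 core histone variants, 7 were higher and 3 lower, with a median of 0.80. These are 41.2% and 17.6%, beside 32.5% and 29.8% of all models. Gm14920, a short H2A variant, measured 16.1, 0, 7.83 and 0 normalized counts in spermatocytes and 249 to 344 in spermatids, and 1700012L04Rik, the H2al1m gene, measured 75.8, 66.7, 113 and 0 against 1372 to 2313. Their fitted log2 fold changes of 6.44 and 5.99 rest on zeros, and that of 1700012L04Rik was 4.39 without spermatocyte library 4. These genes have near-identical copies, so their counts are uncertain. Both genes, and Gm14483, listed as H2al1a, reached 10 normalized counts in fewer than 4 spermatocyte libraries. They met the filter on low values only with spermatid libraries, so the count of 7 higher is not read as a result. H2afy, the macroH2A gene, fell by 1.84 and H2afx, the source of the damage mark of meiosis, fell by 1.57.

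**Figure D5:**
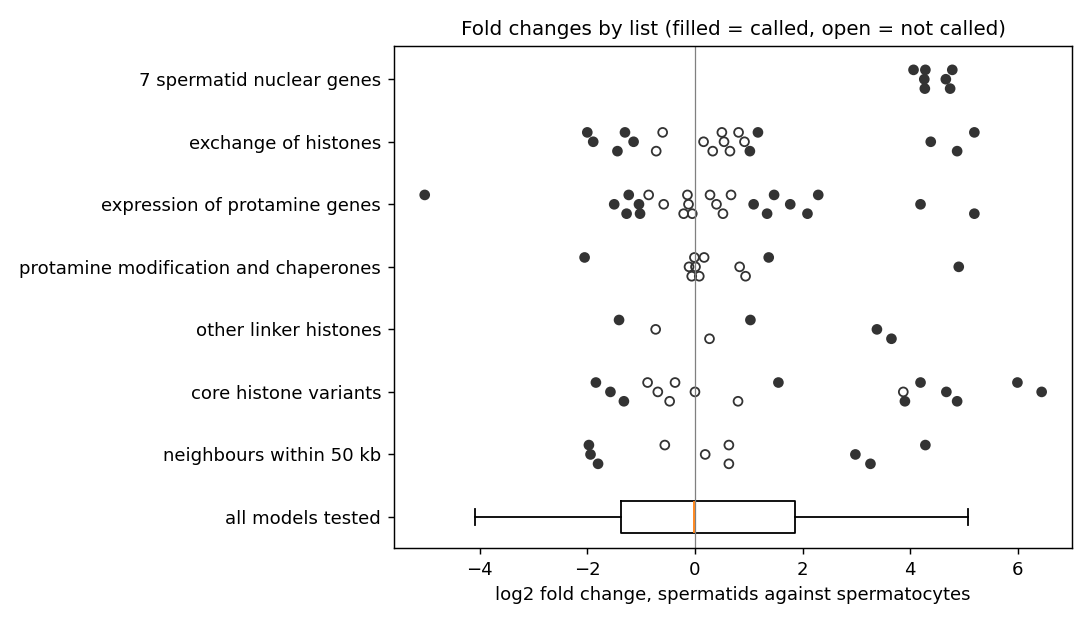
Log2 fold change, spermatids minus spermatocytes, of the 7 genes and of each list, 1 point per gene, with filled points for called genes. The box for all tested models has whiskers at the 5th and 95th percentiles. The 7 genes lie between 4.06 and 4.78, while the lists spread on both sides of 0.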

How the data were processed

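Gene expression was measured by RNA sequencing in 8 libraries. Per the labels' protocols, a stranded mRNA kit was used on DNase-treated RNA. The build mm10 and the tools STAR 2.4.0, DESeq, SAMtools, Picard and FastQC are listed, without their order, per the submitters' processing notes. Which program counted reads, and with which strand setting, is not given in the sources used here. The deposited signal per gene model is a read count divided by a library size factor, and whole reads could be recovered for 100% of values within 10% of a step. The table holds 8 further sample columns, which were not used. Of 56324 models, 32111 carry no symbol.

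Limma 3.58.1 (R 4.3.3) with trend and robust moderation was fitted to log2(normalized count + 1) for 28735 models (in 4 or more libraries, 10 or more normalized counts), comparing 4 spermatid with 4 spermatocyte libraries. Fold changes are on this scale, which can understate the change of low genes or, where some libraries have no reads, overstate it. Those of 1700012L04Rik and Gm14920 were 5.99 and 6.44 on this scale, against 4.83 and 5.57 in edgeR. P-values were adjusted by Benjamini-Hochberg over all tested models. Pairs were tested by exact permutation. EdgeR 4.0.16 and DESeq2 1.42.0 were run on the recovered reads as alternatives. Libraries of a group differed by more than sampling noise, with a chi-square of at least 12.2 per degree of freedom.

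Transcript lengths, strands, GC content and coding sequences came from GENCODE M21 on GRCm38, the build of the table, and promoters from RefSeq on GRCm38.p6. Of 90 listed related genes 80 matched, 5 by an older symbol.

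The members and lists were chosen with earlier results of these data known, and the motifs with the promoters in view. Named genes are the 7 members, Khdrbs1, in each list the 2 called genes with the largest change in each direction, all neighbours with a symbol within 50 kb, and the 3 nearest patterns to each member. Any further listed gene was picked with its values in view. Several choices were also settled after output was seen. The GC correction was first coded as a robust curve, and leaving out a library first reapplied the filter on low values; both first codings are kept as added alternatives. The search for outlying libraries was run over 3 scopes, and the widest is reported.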

Additional observations from a re-analysis of the deposited data

Results flagged for a closer look

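In 148 groups of 4 libraries checked, covering the 7 genes, the pairs and all other named genes, 12 values lay far from the other 3 of their group, where chance gives about 1 in 20. None belonged to the 7 genes or to their ratios. In spermatid library 2, Piwil1 was high at 5835 normalized counts, Nap1l4 high at 5361, Oxct2a low at 7179 and Clu, a Sertoli cell gene, low at 736. In spermatid library 1, Mdc1 was low at 14302, Spam1 low at 15693 and Stra8 high at 1983. The smaller Col1a1 model was high in spermatid library 4 at 52.2. In spermatocyte library 4, Parp1 was high at 18051 and Csf1r high at 35.4. Pecam1 was low in spermatocyte library 3 at 105, and BC048507 was low in spermatocyte library 2 at 133.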

How the results depend on the processing

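All 7 genes were called higher under each of the 32 alternatives run, from 3.59 (Prm2, quantile normalization) to 5.13 (Prm3, first coding of the GC correction), with a largest limma, edgeR or DESeq2 adjusted p of 1.8e-06. Leaving out 1 library moved them between 3.87 and 5.0. Without a filter on low values 14333 models were lower, against 8563. With equal total reads and with quantile normalization alike, exchange of histones had 3 higher, modification and chaperones 1 higher, other linker histones 2 lower and core histone variants 5 lower. Samd14 reversed to -0.24 and -0.23 under these scalings. Other linker histones had 0 lower after either GC correction, and without spermatocyte libraries 3 and 4 also 0; leaving out 1 library gave 0 to 1 lower and, with the filter reapplied, 1 to 3 higher. The first coding of the GC correction gave 3 lower genes of protamine expression and 4 higher of modification and chaperones. For the genes whose GC content is known, 62.7% of calls were higher uncorrected, 62.6% corrected and 66.0% in the first coding, of 17961 models, against 52.2% of all calls. With the filter reapplied to the remaining libraries, the share was 46.1% to 63.0%. The ratio differences Tnp1 to Tnp2 and Tnp1 to Prm1 were both -0.21 after GC correction, and when a library was left out they ranged from -0.07 to 0.12 and from -0.03 to 0.07. The cause of these shifts was not tested. No paired analysis was possible because the labels give no replicate numbers, and those used here only name libraries.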

Other observations

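Of the listed spermatid markers, 11 of 11 for round spermatids and 9 of 10 for elongating spermatids were called higher in spermatids, beside 32.5% of all tested models. Acrv1, an acrosomal vesicle protein gene, went from 634 ± 115 to 26626 ± 3749 normalized counts (SD, n = 4 each), a log2 fold change of 5.40 ± 0.19 (SE, limma adjusted p = 9.5e-10). Akap4, the main protein of the sperm tail's fibrous sheath, went from 5946 ± 832 to 171079 ± 24956 (log2 fold change 4.85 ± 0.18 SE, limma adjusted p = 9.9e-10). Odf2, a tail fibre gene, was already at 176071 ± 50451 in spermatocytes and changed by 1.26 on the log2 scale. Ldhc, the sperm lactate dehydrogenase, was at 244624 ± 50934 in spermatocytes and 253235 ± 18910 in spermatids, with a log2 fold change of 0.07 that was not called. These genes were picked from the marker lists after their values were seen.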
